A study of Mus musculus with 31 samples.

Results

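Arpp21 was represented by 4 cassette exon events, numbered 4549, 4684, 7267 and 8339 in the deposited tables. The members are all events that carry this gene symbol. They were 4 of the 1743 events listed for the R6/2 mice, 4 of 1785 in the Q150 set and 4 of 1839 in the Q175 set. The gene was chosen by the change in exclusion of event 4549 in Q175 HET mice, so the genotypes of the Q175 set are compared as a description, with no test. The R6/2 and Q150 mice had no part in that choice by their own values, although their results were known.

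Splicing was measured in the cortex of 31 mice by RASL-seq, a probe assay in which a pair of oligonucleotides is ligated when it lies side by side on a spliced junction, and the ligated pairs are amplified and counted. The junction that skips the exon gives the short count of an event, and a junction with the exon in place gives its long count. Their ratio gives the exclusion, written here as short counts in percent of short plus long. R6/2 mice carry a transgene of exon 1 of mutant human HTT on a B6CBA background, and 3 HD and 3 WT mice were used at 3 months. The knock-in mice carry the expanded repeat in the mouse's own gene, on 1 allele (HET) or both (HOMO), and knock-in WT mice are labelled with 7 glutamines on both copies. The Q150 set held 5 WT, 4 HET and 4 HOMO mice at 7 months, and the Q175 set 5 WT, 4 HET and 3 HOMO mice at 18 months. No mouse was treated. The study used mice of both sexes. The transgene and the knock-in alleles are present in all cells and not driven in 1 cell type. The genotype labels of the Q150 mice open with the name Q175, and the allele sizes given in them were followed here. For HOMO mice of the knock-in lines, group sizes in the study's methods differ from those in the labels, which were used here and which its supplement also has.

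Between 2171709 and 5256516 junction counts were deposited per mouse, and the 4 Arpp21 events held 0.441% to 0.655% of them. In the Q150 set the mouse numbers form a low and a high series, and each genotype has mice of both. In the Q175 set the HET mice have only low and the HOMO mice only high numbers, so a direct comparison of these groups cannot tell series from genotype, and a fit with series as a term rests on the WT mice, which have both. R6/2 WT replicate 3 stood apart from both other WT mice by more than 2 log2 units in 1 of 1743 events, which was Arpp21 event 4549. By the same rule within their groups, WT replicates 4 and 6 stood apart in 1 event each and the HD mice in 2 to 8. None of those was an Arpp21 event. The changes fitted for event 4549 between R6/2 HD and WT mice are therefore given with and without WT replicate 3.

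Arpp21 encodes a phosphoprotein that is abundant in neurons of the striatum and the cortex and is a substrate of the cAMP-dependent protein kinase. When phosphorylated it binds calmodulin and so limits calmodulin-dependent enzymes. The longer forms of the protein carry an R3H domain, bind RNA and have been linked to the translation initiation machinery. Alternative exons of the gene change which of these forms a neuron makes. TDP-43, the RNA-binding protein at the centre of the study, is known to bind UG repeats and to regulate splicing. The paper describes it as a repressor of cryptic exons, and proposes that its loss of function also alters the use of cassette exons in HD.

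The gene (ENSMUSG00000032503.18) lies on the minus strand at chr9:112065091-112235938 of GRCm38 and has 31 annotated transcripts in GENCODE M21, 14 of them protein coding. The positions in the files lie a constant 97496 or 97497 bases below exon boundaries of this build for 4 of 4 events, although the labels name mm10. The exons were therefore identified by the spacing of their flanking exons, and the coordinates printed are those of the annotation. In transcript order the events are 8339, 7267, 4684 and 4549.

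Event 4549 covers a coding exon of 105 bases at chr9:112126435-112126539. Its length of 35 codons keeps the reading frame when it is skipped. The exon is in 6 annotated transcripts, and 3 transcripts join its neighbours directly. Event 4684 covers a coding exon of 60 bases, or 20 codons, at chr9:112147423-112147482, present in 5 transcripts and skipped in 3. Both sequences are printed because these are the in-frame exons whose use was measured, with the exon in capitals and 20 bases of intron on each side in lower case.
Event 4549 exon: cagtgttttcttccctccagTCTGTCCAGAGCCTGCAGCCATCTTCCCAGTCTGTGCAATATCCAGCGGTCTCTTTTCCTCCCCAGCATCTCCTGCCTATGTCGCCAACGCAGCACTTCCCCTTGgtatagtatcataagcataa
Event 4684 exon: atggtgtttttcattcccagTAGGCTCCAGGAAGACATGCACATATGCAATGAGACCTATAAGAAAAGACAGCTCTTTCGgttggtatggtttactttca

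Event 7267 spans the exons at chr9:112149335-112149372 and chr9:112176095-112176235, and the annotation has 2 exons that could lie between them. The one in coding transcripts has 109 bases at chr9:112157690-112157798, which is not a whole number of codons. Event 8339 covers a 5′ UTR exon of 38 bases at chr9:112187470-112187507, which 3 transcripts have and 17 skip. It is annotated as UTR in 1 of the 3, as coding in none, and the other transcripts that have it are not protein coding. Events 4684 and 7267 share the exon at chr9:112149335-112149372 as a flank, so their counts are not independent measures of the gene. The UG-repeat letters TGTGTG, searched on the transcribed strand in the 300 bases on each side of the exon (which for event 8339 reach past the upstream intron of 82 bases), occurred 1 time downstream of the event 4549 exon and nowhere beside the other exons. Of 9965 internal coding exons on chromosome 9, 19.9% had the letters in the upstream and 22.9% in the downstream window. A match of these letters is a description and not a binding site.

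**Figure D1:**
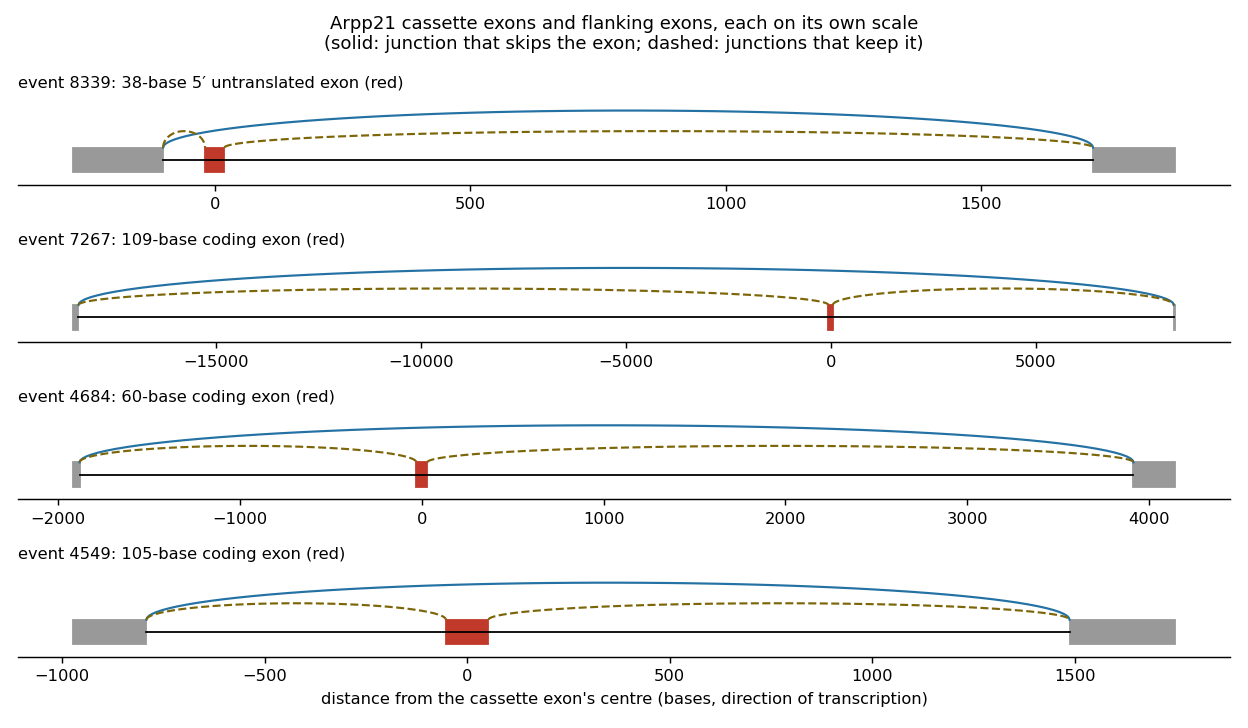
Exons of the 4 Arpp21 events along the transcript, each panel on its own scale, in bases from the centre of the cassette exon (red), with the flanking exons in grey. Solid arcs stand for the junction that skips the exon and dashed arcs for the junctions that keep it, of which the files do not say which was probed.

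The event 4549 exon was skipped more often in Q150 mice with 1 or 2 mutant alleles than in WT mice of the same set. In the 5 WT mice of the Q150 set its exclusion was 44.8%, 47.1%, 50.4%, 39.3% and 40.8%. In the 4 HET mice it was 58.0%, 60.8%, 53.7% and 62.2%. In the 4 HOMO mice it was 63.7%, 63.9%, 63.9% and 53.4%. Each HET and each HOMO mouse lay above every WT mouse. The WT mean was 44.5% ± 4.53 (SD, n = 5). The HET mean was 58.7% ± 3.76 (SD, n = 4), and the HOMO mean 61.3% ± 5.21 (SD, n = 4).

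The short to long ratio of event 4549 rose 1.77-fold in Q150 HET mice (log2 0.83 ± 0.18, SE; limma adjusted p = 0.0162). Of all events, 3.47% passed in this comparison, and 5.94% had every HET mouse above every WT mouse. In HOMO mice the ratio rose 1.98-fold (log2 0.99 ± 0.18, SE; limma adjusted p = 0.000489). In that comparison 23.9% of events passed and 14.8% had every HOMO mouse above every WT mouse. The differences were 14.2 and 16.8 percentage points, each with a two-sided exact permutation p of 0.0159, the smallest that these group sizes allow. The HET call was lost without HET replicate 1 (limma adjusted p = 0.0561) or HET replicate 2 (limma adjusted p = 0.0580), at changes of 0.84 and 0.78.

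The assay as a whole shifted toward exclusion, so the change was also read against the other events. The median log2 change over all events was 0.10 in Q150 HET and 0.19 in Q150 HOMO mice. With each mouse centred on its median event, event 4549 kept changes of 0.72 in HET mice (limma adjusted p = 0.0415) and 0.79 in HOMO mice (limma adjusted p = 0.00489). Centring changed the split of calls over all events from 54 higher and 8 lower to 23 and 17 in HET mice, or 2.24% of events in all. In HOMO mice it changed the split from 354 higher and 73 lower to 170 and 157, or 18.3%. Among 1785 events ordered by change from the highest, event 4549 stood at place 48 in HET and place 106 in HOMO mice.

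No difference between HOMO and HET mice passed for event 4549. The HOMO mean was 2.59 percentage points above the HET mean (two-sided exact permutation p = 0.400), and the log2 difference was 0.16 ± 0.19 (SE; limma adjusted p = 0.765, with 2.18% of events passing). That difference ran from 0.060 to 0.31 with each mouse left out and was 0.062 after centring. HOMO replicates 1, 2 and 3 lay above all HET mice and HOMO replicate 4 lay below them all. Over all 13 mice the exclusion rose by 8.59 points per mutant allele (two-sided exact permutation p = 0.000888 over 90090 arrangements). The fitted slope was 0.50 ± 0.098 (SE) log2 units per allele (limma adjusted p = 0.000575), in a fit where 23.4% of events passed. Within the low series of mouse numbers HET mice lay 10.1 and HOMO mice 16.4 points above WT, and within the high series 1 HET mouse lay 22.1 and HOMO mice 18.6 points above it.

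In Q175 mice, which gave rise to the choice of the gene, event 4549 ran from 36.7% to 43.5% in the 5 WT mice, with single values of 37.4%, 43.5%, 39.0%, 36.7% and 40.0%. The 4 HET mice had 44.7%, 57.1%, 52.6% and 60.9%, and the 3 HOMO mice 53.1%, 50.9% and 56.0%. No HET or HOMO mouse overlapped with WT, as was so for 2.23% of events in HET and 9.79% in HOMO mice, counted upward. HET and HOMO values overlapped with each other. Means were 39.3% ± 2.67 (SD, n = 5), 53.8% ± 6.93 (SD, n = 4) and 53.3% ± 2.58 (SD, n = 3). The log2 change was 0.85 ± 0.16 (SE) in HET and 0.82 ± 0.18 (SE) in HOMO mice against the same WT mice. Against WT mice of their own number series, HET mice lay 13.9 and HOMO mice 15.0 points higher. These values can be set beside the Q150 ones only as a description.

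**Figure D2:**
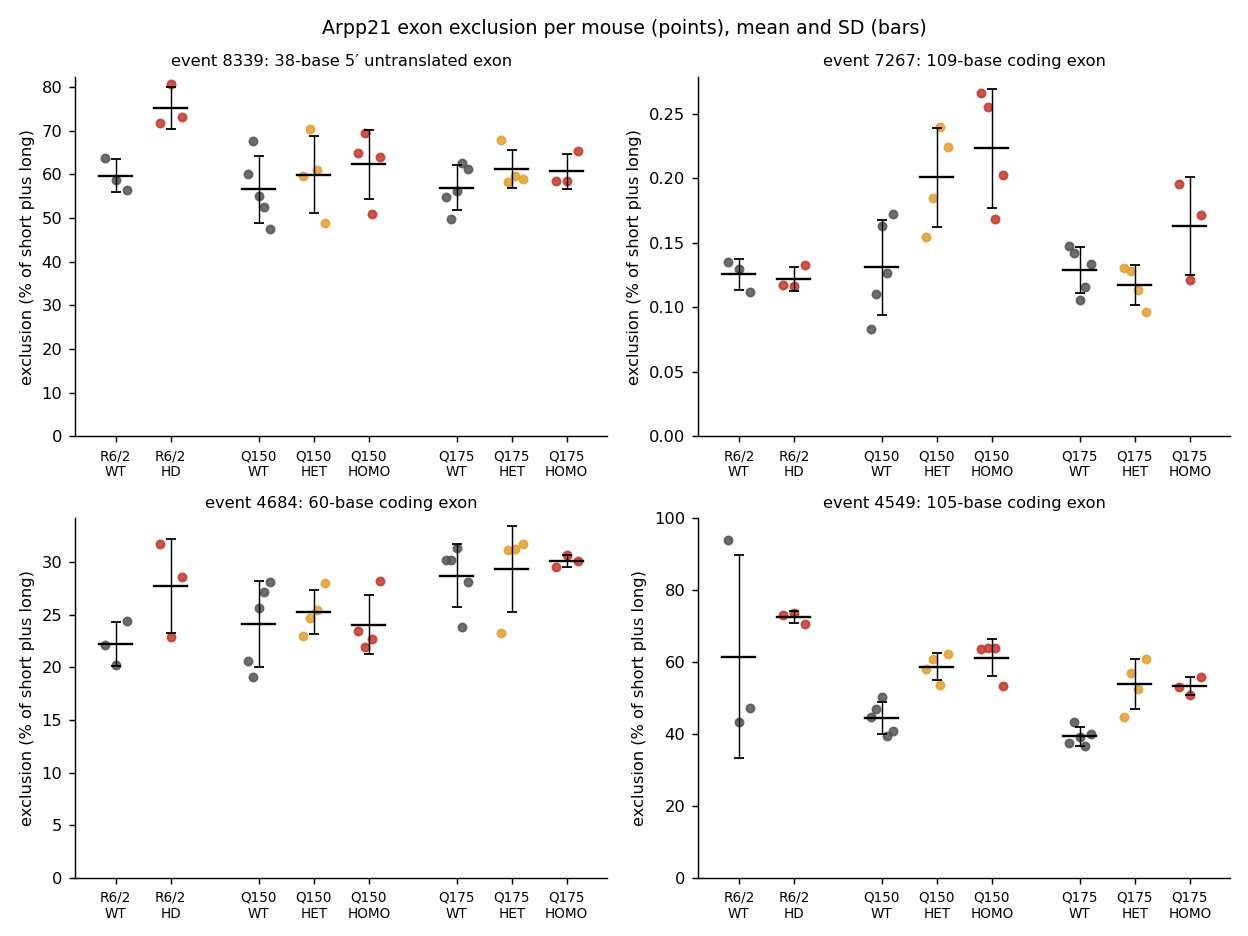
Exclusion of the 4 Arpp21 events in percent (short counts of short plus long) for each of the 31 mice by set and genotype, with the group mean and SD. Event 4549 lies higher in all Q150 HET and HOMO mice (53.4% to 63.9%) than in the Q150 set's WT mice (39.3% to 50.4%), and R6/2 WT replicate 3 stands alone at 94.1%.

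In R6/2 mice the reading of event 4549 turned on 1 WT mouse. WT replicate 3 had 94.1% exclusion (95% Wilson interval 92.4% to 95.4%, from 889 short and 56 long counts), against 43.4% in WT replicate 4 and 47.2% in WT replicate 6. The 3 HD mice had 73.2%, 73.6% and 70.5%, between the high WT mouse and the other WT mice. With all mice the log2 change was 0.25 ± 0.83 (SE; limma adjusted p = 0.856), and the mean difference was 10.9 points (two-sided exact permutation p = 0.400, smallest possible 0.100). Without WT replicate 3 the change was 1.66 on the log2 scale (limma adjusted p = 0.000252), and the difference 27.2 points, for which 3 against 2 mice cannot reach a two-sided exact permutation p below 0.200. Of all events, 28.6% passed with all 6 mice and 24.3% without this WT mouse.

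In WT replicate 3 the skipping junction was higher and the junction that keeps the exon lower than in the other WT mice. Its short junction had 309 counts per 1000000 counts of the mouse (CPM), against 35.0 and 42.2 in the other WT mice, and its long junction had 19.4 against 45.6 and 47.3. The other 3 events of this mouse lay close to those of the other WT mice, at 63.8% for event 8339, 0.135% for event 7267 and 22.2% for event 4684. The cause was not tested. Whether the change of event 4549 differed between R6/2 and Q150 HOMO mice could not be settled, at -0.74 ± 0.77 (SE; limma adjusted p = 0.655) with this mouse and 0.68 (limma adjusted p = 0.198) without it. Of the 1680 events listed in both sets, 6.96% passed that test.

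Singly, the skipping junction of event 4549 rose in Q150 HOMO mice and the junction that keeps the exon did not pass the test. The short junction ran from 27.6 to 41.4 CPM in WT, from 37.4 to 57.4 in HET and from 49.0 to 63.1 in HOMO mice. The long junction ran from 40.7 to 46.5 in WT, from 28.9 to 40.9 in HET and from 32.5 to 42.7 in HOMO mice. The HOMO mice did not overlap with WT in the short junction, but the share of all junctions without overlap was not counted. The HET mice overlapped with WT in both junctions. In HOMO mice the short junction was 1.65-fold higher (log2 0.72 ± 0.15, SE; limma adjusted p = 0.00376), and the long junction changed by -0.27 ± 0.13 (SE; limma adjusted p = 0.170). In HET mice the changes were 0.49 (limma adjusted p = 0.105) and -0.34 (limma adjusted p = 0.176). Of all junctions, 16.7% passed in HOMO and 1.99% in HET mice.

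In R6/2 mice without WT replicate 3, the short junction of event 4549 was 2.05-fold higher in HD than in WT mice (limma adjusted p = 0.000468) and the long junction changed by -0.63 on the log2 scale (limma adjusted p = 0.0155). With all WT mice the changes were 0.04 and -0.21, and neither passed (limma adjusted p = 0.965 and 0.580). In Q175 mice the short junction was higher by 0.50 in HET and 0.51 in HOMO mice on the log2 scale, and the long junction changed by -0.35 and -0.31, as a description.

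**Figure D3:**
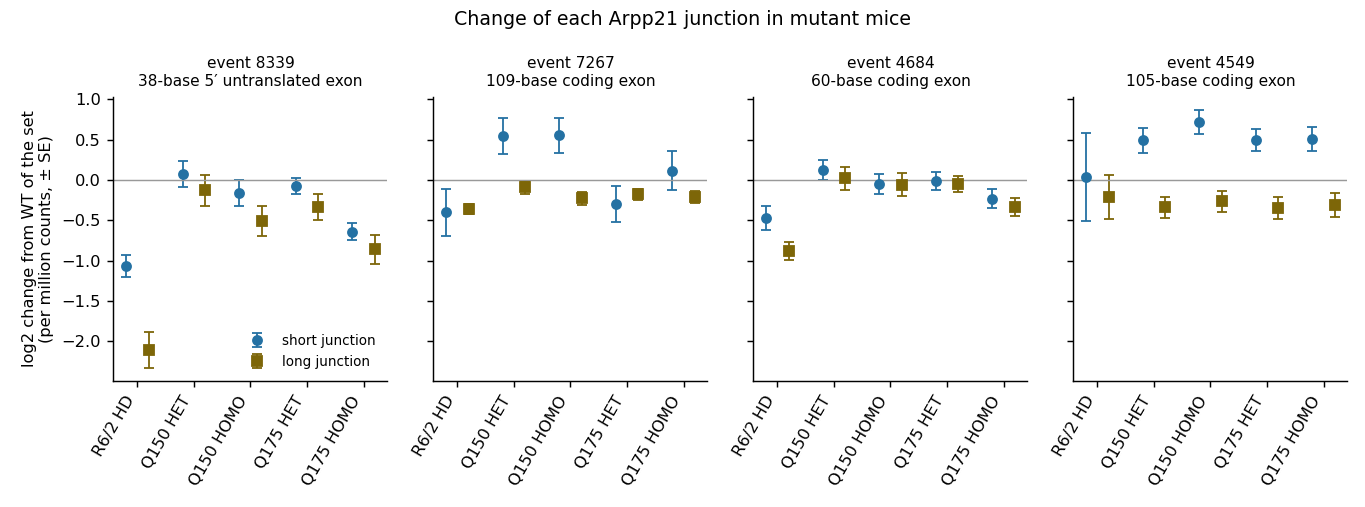
Log2 change from the WT mice of the set, with its SE, of the short (exon skipped, circles) and the long (exon kept, squares) junction of each Arpp21 event, in 5 groups of mutant mice. The short junction of event 4549 lies above 0 in Q150 and Q175 mice and its long junction below 0, and both junctions of event 8339 lie below 0 in R6/2 HD mice, at -1.07 and -2.11.

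Event 8339, the 5′ UTR exon, was the Arpp21 event whose exclusion passed the test in R6/2 mice with all mice included. Its exclusion was 63.8%, 58.8% and 56.4% in the 3 WT mice and 71.8%, 80.6% and 73.1% in the 3 HD mice. All HD mice lay above all WT mice, as did 28.6% of events. The mean went from 59.7% ± 3.77 (SD, n = 3) to 75.2% ± 4.75 (SD, n = 3), a difference of 15.5 points with the smallest two-sided exact permutation p that 3 against 3 mice allow, 0.100. The short to long ratio rose 2.06-fold (log2 1.04 ± 0.22, SE; limma adjusted p = 0.00409). Against the median event the change was 0.90 (limma adjusted p = 0.00697), the median change over all events being 0.18. Centring moved the split of all calls from 368 higher and 130 lower to 285 and 196, or 27.6% of events. Ordered from the highest change, the event stood at place 207 of 1743.

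In the Q150 set the values of event 8339 overlapped throughout. WT mice had 60.1%, 67.6%, 55.1%, 52.5% and 47.5%, HET mice 59.6%, 70.3%, 60.9% and 48.8%, and HOMO mice 65.0%, 69.4%, 50.8% and 63.9%. Neither contrast with WT passed, at log2 changes of 0.20 ± 0.25 (SE; limma adjusted p = 0.727) in HET and 0.35 ± 0.25 (SE; limma adjusted p = 0.349) in HOMO mice. The HOMO change ran from 0.20 to 0.57 with each mouse left out and was 0.15 after centring. In each genotype the mice of the high number series lay below those of the low series. Within the low series HET mice lay 2.65 and HOMO mice 6.23 points above WT, and within the high series they lay -1.23 and 7.39 points from it. The difference between the R6/2 and the Q150 HOMO change was 0.69 ± 0.39 (SE) and did not pass (limma adjusted p = 0.330). In the Q175 set the WT mice ran from 49.7% to 62.6%, the HET mice from 58.3% to 67.8% and the HOMO mice from 58.4% to 65.2%, with overlap between all groups.

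Event 7267 was almost always measured with the exon kept, and its exclusion rose in Q150 HOMO mice at a very low level. WT mice had 0.0836%, 0.111%, 0.163%, 0.127% and 0.172%. HET mice had 0.155%, 0.185%, 0.239% and 0.224%, and HOMO mice 0.266%, 0.256%, 0.169% and 0.202%. The 3 highest HET and the 3 highest HOMO mice lay above every WT mouse, and 1 mouse of each group lay within the WT range. These percentages rest on 21 to 49 short counts per mouse in that set, beside 13340 to 25105 long counts.

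The short to long ratio of event 7267 rose 1.72-fold in Q150 HOMO mice (log2 0.78 ± 0.24, SE; limma adjusted p = 0.0232), where 23.9% of events passed. Singly, neither of its junctions passed in these mice. The short junction changed by 0.55 (limma adjusted p = 0.0888) and the long junction by -0.23 (limma adjusted p = 0.0532). The call on the ratio was lost when each mouse was centred on its median event (0.58, limma adjusted p = 0.0932). It was also lost without WT replicate 1 (0.63, limma adjusted p = 0.0664), HOMO replicate 1 (0.69, limma adjusted p = 0.0761) or HOMO replicate 2 (0.71, limma adjusted p = 0.0690). In HET mice the change was 0.63 ± 0.24 (SE) and did not pass (limma adjusted p = 0.165). The exact permutation p values for the percentages were 0.0476 in HET and 0.0317 in HOMO mice, both two-sided and not adjusted for the number of events. The slope over 13 mice was 0.40 ± 0.12 (SE) log2 units per allele (limma adjusted p = 0.0199), in a fit where 23.4% of events passed. That call ended with centring (0.30, limma adjusted p = 0.0844) and without WT replicate 1, HOMO replicate 1 or HOMO replicate 2 (limma adjusted p = 0.0641, 0.0551 and 0.0502).

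In R6/2 mice event 7267 had 0.135%, 0.130% and 0.112% exclusion in WT and 0.117%, 0.117% and 0.133% in HD mice, with full overlap. The log2 change was -0.04 ± 0.29 (SE; limma adjusted p = 0.928), and its difference from the Q150 HOMO change was -0.82 ± 0.36 (SE; limma adjusted p = 0.182). In the Q175 set the exclusion ran from 0.105% to 0.147% in WT, from 0.0965% to 0.131% in HET and from 0.122% to 0.196% in HOMO mice.

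Event 4684, the exon of 20 codons, passed the exclusion test in neither the R6/2 nor the Q150 comparisons with all mice. In R6/2 mice it was skipped in 22.2%, 20.2% and 24.4% of counts in WT and in 31.8%, 22.9% and 28.6% in HD mice. HD replicate 868 lay within the WT range. The log2 change was 0.41 ± 0.18 (SE; limma adjusted p = 0.106), and without that mouse it was 0.59 (limma adjusted p = 0.0238). In the Q150 set WT mice ran from 19.1% to 28.1%, HET mice from 23.0% to 28.0% and HOMO mice from 22.0% to 28.2%. The HOMO change of 0.0051 ± 0.16 (SE; limma adjusted p = 0.989) had no settled direction, since it was -0.20 when centred on the median event. In the Q175 set the ranges were 23.8% to 31.3% in WT, 23.3% to 31.8% in HET and 29.5% to 30.7% in HOMO mice.

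The total of short and long counts gives a measure of the RNA that contains the flanking exons. Totals cannot be compared between events, since each event has its own probes. In R6/2 HD mice 3 of 4 Arpp21 events had lower totals than in WT mice. Event 8339 had 178, 212 and 167 CPM in WT and 76.2, 61.2 and 73.8 in HD mice. Event 4684 had 385, 442 and 411 in WT and 222, 241 and 261 in HD mice. Event 7267 had 5657, 5667 and 5576 in WT and 4470, 4337 and 4347 in HD mice. In all 3 events each HD mouse lay below each WT mouse, as in 17.4% of events.

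The total of event 8339 was 2.64-fold lower in HD mice (log2 -1.40 ± 0.13, SE; limma adjusted p = 2.43e-06), at place 1734 of 1743 from the highest change. The total of event 4684 was 1.71-fold lower, at -0.78 ± 0.094 (SE; limma adjusted p = 2.37e-05). The total of event 7267 was 1.28-fold lower, at -0.36 ± 0.058 (SE; limma adjusted p = 0.000243). The 3 events fell by different amounts, with the 5′ UTR event lowest. Totals moved for 44.4% of all events, 515 upward and 259 (14.9%) downward, and the median event was higher by 0.13 on the log2 scale. Against the median event the changes of events 8339, 4684 and 7267 were -1.47, -0.85 and -0.43 (limma adjusted p = 1.41e-06, 1.23e-05 and 0.000300), and the split over all events was 391 upward and 307 downward, or 40% in all.

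The total of event 4549 depended on R6/2 WT replicate 3. It was 328, 80.6 and 89.6 CPM in R6/2 WT and 108, 112 and 107 in HD mice. The change was -0.29 ± 0.36 (SE; limma adjusted p = 0.541) with all mice and 0.36 (limma adjusted p = 0.0260) without WT replicate 3. The HD mice lay close together, above 2 WT mice and below the third. The 4 events of the gene thus did not share 1 change of total in R6/2 mice.

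**Figure D4:**
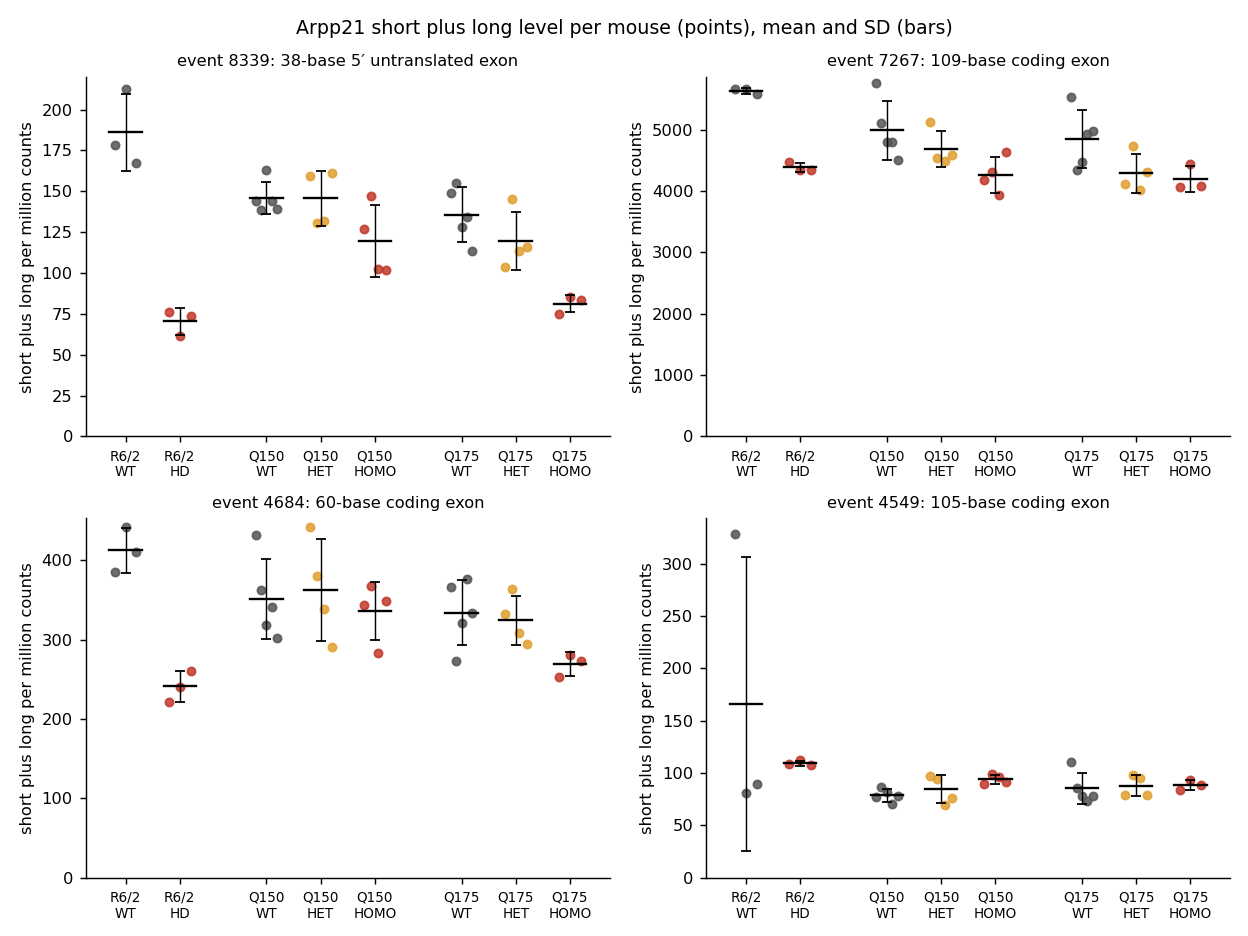
Total of short plus long counts of the 4 Arpp21 events in CPM for each mouse (points) by set and genotype, with the group mean and SD (bars), each panel on its own axis from 0. In R6/2 HD mice the totals of event 8339 lie at 61.2 to 76.2, below the WT range of 167 to 212, and the totals of events 4684 and 7267 also lie below WT.

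Singly, both junctions of event 8339 fell in R6/2 HD mice, the one that keeps the exon by more. The long junction was 4.31-fold lower (log2 change -2.11 ± 0.22, SE; limma adjusted p = 7.33e-06) and the short junction 2.10-fold lower (-1.07 ± 0.14, SE; limma adjusted p = 4.56e-05). For event 4684 the long junction changed by -0.88 ± 0.11 (SE; limma adjusted p = 3.27e-05) and the short junction by -0.47 ± 0.14 (SE; limma adjusted p = 0.0207). For event 7267 the long junction changed by -0.36 ± 0.061 (SE; limma adjusted p = 0.000405), and the short junction, at 16 to 25 counts per mouse, did not pass (limma adjusted p = 0.297). Of all 3486 junctions, 36.2% passed in this comparison.

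In the Q150 set no Arpp21 total passed on the scale of CPM with all mice. In HOMO mice event 7267 had 4172, 4304, 3929 and 4637 CPM against 5764, 5101, 4801, 4800 and 4499 in WT, a log2 change of -0.23 ± 0.077 (SE; limma adjusted p = 0.0571). Event 8339 had 127, 147, 102 and 102 against 144, 139, 163, 144 and 139 in WT, a change of -0.30 ± 0.11 (SE; limma adjusted p = 0.0847). HOMO and WT mice overlapped in both. Against the median event both passed, at -0.31 (limma adjusted p = 0.0185) and -0.39 (limma adjusted p = 0.0275), and so they did with the number series as a term, at -0.22 (limma adjusted p = 0.0243) and -0.29 (limma adjusted p = 0.0434). In HOMO mice event 7267 also passed without WT replicate 5 (-0.26, limma adjusted p = 0.0414) or HOMO replicate 4 (-0.27, limma adjusted p = 0.0404), and event 8339 without HOMO replicate 2 (-0.41, limma adjusted p = 0.0397). Over all events, 14.1% of totals passed in HOMO mice, 167 upward and 85 downward, and after centring 11.9%, 67 upward and 146 downward. The totals of events 4549 and 4684 changed by 0.26 (limma adjusted p = 0.114) and -0.06 (limma adjusted p = 0.783). In HET mice none of the 4 totals passed, at changes of -0.089 to 0.088, where 0.84% of events did.

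In Q175 HOMO mice the totals of event 8339 were 75.1, 85.4 and 83.2 CPM, all below the WT values of 149, 155, 128, 134 and 113, as was so for 7.29% of events. The log2 change was -0.73 ± 0.11 (SE), at place 1833 of 1839 from the highest. The changes of events 4684, 7267 and 4549 in these mice were -0.30, -0.21 and 0.07. In HET mice the 4 changes ran from -0.18 to 0.05. These values come from the set in which the gene was chosen and were not tested.

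In bulk cortex fewer cells of a type and less RNA per cell cannot be told apart. Of 8 neuron markers the assay listed Grin1 and Syt1, a glutamate receptor subunit and a synaptic vesicle calcium sensor. Their summed level was 32818 to 37093 CPM in R6/2 WT and 25451 to 30162 in HD mice, with no overlap. In the Q150 set it was 33679 to 40904 in WT, 28912 to 36972 in HET and 29324 to 33620 in HOMO mice, so that HOMO mice lay below all WT mice. In the Q175 set it was 29807 to 38013 in WT, 30407 to 36414 in HET and 31307 to 36217 in HOMO mice, with overlap. No marker of striatal projection neurons (0 of 9), astrocytes (0 of 5) or microglia (0 of 5) was listed. The precursor marker Ptprz1, 1 of 3 on its list, was at 699 to 798 in R6/2 WT and 463 to 490 in HD mice. In the Q150 set it was at 490 to 725 in WT, 723 to 777 in HET and 697 to 754 in HOMO mice, and in the Q175 set at 622 to 722, 616 to 708 and 579 to 707. The listed oligodendrocyte markers, 2 of 7 in R6/2 mice, were at 10880 to 13272 in WT and 9001 to 13066 in HD mice, with overlap. In both knock-in sets, with 3 of 7 listed, HET and HOMO mice also overlapped with WT. The endothelial marker Pecam1, 1 of 3 on its list, overlapped with WT in every set. In the Q175 set it was at 1129 to 1347 in WT, 942 to 1145 in HET and 973 to 1177 in HOMO mice. The part of cell numbers in the Arpp21 totals was not tested.

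Other genes of cAMP, dopamine and calmodulin signalling were read for exclusion from a list of 68 genes, of which 14 were listed in the assay. In R6/2 HD mice 7 of 21 events passed upward and 4 downward, beside 21.1% and 7.46% of all events, with a median log2 change of 0.37 against 0.18 over all events. In Q150 HOMO mice 9 of 22 events passed upward and 1 downward, beside 19.8% and 4.09% of all events, with a median of 0.40 against 0.19. As a description, the median over its 24 events in the Q175 set was 0.0064 in HET and -0.068 in HOMO mice, against 0.041 and 0.068 over all events. In Q150 HET mice 1 of 22 events passed, in Ppp3ca, a calcineurin catalytic subunit (event 4092, limma adjusted p = 0.0498), beside 3.47% of all events. That event also rose by 0.37 in R6/2 HD (limma adjusted p = 0.0143) and 0.47 in Q150 HOMO mice (limma adjusted p = 0.00245). The list held several events of the calmodulin-dependent kinases, which the Arpp21 protein is known to affect through calmodulin.

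Camk2d event 4554 changed by 1.95 ± 0.25 (SE) on the log2 scale in R6/2 HD mice (limma adjusted p = 0.000120) and by 1.14 ± 0.19 (SE) in Q150 HOMO mice (limma adjusted p = 0.000183). Camk2d event 8961 moved the other way, by -0.84 (limma adjusted p = 0.0195) and -0.87 (limma adjusted p = 0.00610), as did event 3972 in R6/2 HD mice at -1.06 (limma adjusted p = 0.00493), which did not pass in Q150 HOMO mice (-0.59, limma adjusted p = 0.0808). Camk2g event 4106 rose by 1.06 in R6/2 HD mice (limma adjusted p = 0.00111) and did not pass in Q150 HOMO mice at 0.39 (limma adjusted p = 0.101), and Camk2g event 8917 rose by 0.81 (limma adjusted p = 0.0118) and 0.68 (limma adjusted p = 0.00370). Camkk2 event 4741, in the kinase that activates other calmodulin-dependent kinases, changed by 2.25 ± 0.39 (SE) in R6/2 HD mice (limma adjusted p = 0.000989) and did not pass in Q150 HOMO mice at 1.01 (limma adjusted p = 0.0904). Crtc2 event 4885, in a coactivator of CREB, changed by 1.42 in Q150 HOMO mice (limma adjusted p = 0.00128) and did not pass in R6/2 HD mice at 0.099 (limma adjusted p = 0.832).

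A list of 16 R3H paralogues and translation initiation factors had 5 genes in the assay, with 10 events. In R6/2 HD mice 2 passed upward and 3 downward, and in Q150 HOMO mice 3 upward and 2 downward, with medians of 0.31 and 0.26. Over all events, 21.1% passed upward and 7.46% downward in R6/2 mice and 19.8% and 4.09% in Q150 HOMO mice, with medians of 0.18 and 0.19. The medians of this list in Q175 mice were 0.058 in HET and 0.077 in HOMO mice, also as a description. The exclusion of R3hdm2, a paralogue with an R3H domain, rose at event 9354 by 0.59 ± 0.094 (SE) in R6/2 (limma adjusted p = 0.000568) and by 0.43 ± 0.076 (SE) in Q150 HOMO mice (limma adjusted p = 0.000257). R3hdm2 event 4973 rose in R6/2 at 0.61 (limma adjusted p = 0.00129) and did not pass in Q150 HOMO mice at 0.20 (limma adjusted p = 0.532). R3hdm2 event 7602 did not pass in R6/2 at 0.16 (limma adjusted p = 0.411) and rose in Q150 HOMO mice at 0.38 (limma adjusted p = 0.0423). R3hdm2 event 4891 passed in neither, at 0.51 (limma adjusted p = 0.245) and 0.52 (limma adjusted p = 0.0524). Eif4h, a cofactor of that initiation complex's helicase, fell at event 3930, with changes of -0.46 in R6/2 (limma adjusted p = 0.00388) and -0.49 in Q150 HOMO mice (limma adjusted p = 0.0108). Eif4a2, a form of the helicase, fell at event 8759, with changes of -0.39 (limma adjusted p = 0.0436) and -0.51 (limma adjusted p = 0.0211) in the same comparisons. Eif4g3, a scaffold protein of translation initiation, rose at event 8954 in Q150 HOMO mice at 0.32 (limma adjusted p = 0.0239) and did not pass in R6/2 at 0.24 (limma adjusted p = 0.126). At event 8283 it fell in R6/2 at -0.87 (limma adjusted p = 0.0438) and did not pass in Q150 HOMO mice at 0.47 (limma adjusted p = 0.225). The Q150 HET mice had no call on this list.

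Likeness of pattern was measured over 31 mice as Pearson's r of the log2 ratio, each mouse taken relative to the WT mean of its set, over 1662 events listed in every set. The mice share their set and depth, and the values are a description. By rule the reference was event 7267, the event with the highest mean total. The events most like it were Pja2 event 8336 (r = 0.72), Ttc3 event 4934 (0.72), 5530601H04Rik event 7846 (0.71), Wdr7 event 4936 (0.68) and Pcdh9 event 9436 (0.67). The least like were Tpp2 event 4836 (-0.70), Clec16a event 7674 (-0.68) and Ttc3 event 9430 (-0.68). The other Arpp21 events had r of 0.32 (event 4549), 0.08 (event 4684) and -0.01 (event 8339) with event 7267. For event 4549 r was 0.42 with R6/2 WT replicate 3 left out of the correlation but kept in the WT mean. The ratio of event 7267 rests on 16 to 49 short counts per mouse, and the mice include the Q175 mice in which the gene was chosen.

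For event 4549, a reference chosen after its values were seen, the events most like it were Sfi1 event 7642 (r = 0.66), Nlgn3 event 8210 (0.59), Add1 event 8526 (0.57), Tjap1 event 7829 (0.57) and Btrc event 9105 (0.55). With R6/2 WT replicate 3 left out of the correlation, over 30 mice, Sfi1 remained first (0.67). The next were Myohd1 (0.66), Shank1 (0.66), Erbb2ip (0.66) and 5530601H04Rik (0.66). The WT mean of the R6/2 set still included that mouse, so these values are not free of it. The list below the first place thus changed when the mouse was left out of the correlation. The least like event was Ctnna2 event 4405 both with that mouse (-0.57) and with it left out in this way (-0.68).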

How the data were processed

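Per the labels, RNA was taken from the cortex of 1 hemisphere, junction probes were annealed, RNA was selected on oligo(dT) beads, and ligated probes were amplified by PCR. No molecular identifiers are stated, so Wilson intervals cover counting error only, and oligo(dT) selection may weigh 3′ junctions more. The authors deposited 1 table per mouse with whole-number counts of the short and long junction of each event, written with digit separators and not normalised. The labels name mm10, and the aligner is not given in the sources used here. All events listed for a set entered its main fits, and events listed in both sets entered fits across sets.

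The members and lists were chosen with earlier results of these data known. The log2 of (short + 0.5) over (long + 0.5) was fitted over all events of a set with limma 3.58.1 in R 4.3.3, with a variance trend on the counts and Benjamini-Hochberg adjustment over all events, and called at an adjusted p under 0.05. Totals and single junctions were fitted as log2 of counts per 1000000 counts of the mouse (CPM). HET, HOMO and WT mice of a set shared 1 variance. Percent exclusion was also compared by two-sided exact permutation over mice. Each mouse was 1 sample. The limma p-values set a change against the spread between mice, with variances drawn toward a trend over all events. Alternatives were a quasi-binomial model, a pseudocount of 5, no minimum or a minimum of 50 for an event's mean total in place of 10, no variance trend, only the 2 groups compared, centring each mouse on its median event, mouse-number series as a term, all 10 knock-in WT mice, and each mouse left out. Tested on simulated data, the ratio fit recovered 63% of log2 changes of 1 in R6/2, 90% in Q150 HET and 80% in Q150 HOMO mice. By rule, named events were the Arpp21 events, the 5 most and 3 least like event 7267, up to 6 events of each list that passed in R6/2 or Q150 HOMO mice, by adjusted p, and all R3hdm2 events. Camk2d events 3972 and 8961, Eif4g3 event 8283 and the events like event 4549 were named after their values were seen. No 2 mice of a group had identical values.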

Additional observations from a re-analysis of the deposited data

Results flagged for a closer look

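Exclusion and total of the 4 events were looked at in each group of 4 or 5 mice. In 5 of these 40 sets of values a highest or lowest mouse lay far from the others relative to the range of the group, and chance alone gives about 1 in 20. The values of Q175 mice among them are a description. The exclusion of event 4549 in Q150 HOMO replicate 4 was 53.4%, with the nearest mouse of the group at 63.7%. The exclusion of event 4684 in Q175 HET replicate 1 was 23.3%, with the nearest mouse at 31.2%. The exclusion of event 8339 in the same Q175 HET replicate 1 was 67.8%, with the nearest mouse at 59.7%. The total of event 7267 in Q150 HET replicate 1 was 5126 CPM, with the nearest mouse at 4594. The total of event 8339 in knock-in WT replicate 3 was 163 CPM, with the nearest mouse at 144. Groups of 3 were not tested, so the 94.1% of R6/2 WT replicate 3 at event 4549 could not be found this way.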

How the results depend on the processing

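No paired analysis was possible because the labels give no replicate numbers shared between groups, and the numbers used here only name the mice. The rise of event 4549 in Q150 HOMO mice and in the slope, and the changes of events 8339, 4684 and 7267 in R6/2 totals and of event 8339 in R6/2 exclusion, kept direction and call under the alternatives run on them with only mice of their own set. For totals these were centring, no variance trend, a minimum of 50 and each mouse left out.

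Centring each mouse on its median event ended the calls of event 7267 in Q150 HOMO exclusion (0.58) and slope (0.30). It brought totals past the threshold for events 7267 (-0.31) and 8339 (-0.39) in Q150 HOMO mice and for their slopes (-0.15 and -0.19). For event 4684 it turned the exclusion to -0.0025 in Q150 HET, -0.20 in HOMO and -0.094 in the slope. The series term brought past the threshold the totals of events 7267 (-0.22) and 8339 (-0.29) in Q150 HOMO mice and the slope of event 7267 (-0.11), and turned event 4684 exclusion to -0.028 in HOMO mice and -0.0069 in the slope. In Q175 HOMO against HET mice it moved totals of events 4549, 4684 and 8339 to 0.28, -0.42 and -0.33, and exclusion of events 4684 and 8339 to 0.40 and -0.52. Against WT it moved Q175 HOMO exclusion of events 4684 and 8339 to 0.30 and -0.072. With all 10 knock-in WT mice, 5 of which belong to the set in which the gene was chosen, event 7267 passed in Q150 HET mice (0.63), and event 4684 turned to -0.074 in HET, -0.17 in HOMO and -0.084 in the slope. The quasi-binomial model turned event 4549 in R6/2 mice, WT replicate 3 included, to -0.40. The causes were not tested.

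With each mouse left out, exclusion changes in Q150 HET mice ran from 0.75 to 0.93 for event 4549, -0.0034 to 0.18 for 4684 and -0.014 to 0.42 for 8339, and totals from -0.061 to 0.14 for 4684 and -0.057 to 0.043 for 8339. In Q150 HOMO mice exclusion ran from -0.10 to 0.084 for 4684 and 0.63 to 0.91 for 7267, and totals from -0.11 to 0.020 for 4684, -0.27 to -0.17 for 7267 and -0.41 to -0.23 for 8339. Between HOMO and HET mice the total of 4684 ran from -0.20 to 0.00039 and the exclusion of 8339 from -0.078 to 0.37. Slopes ran from -0.050 to 0.042 (4684) and 0.32 to 0.47 (7267) for exclusion, and from -0.056 to 0.013 (4684) and -0.13 to -0.087 (7267) for totals. In R6/2 mice exclusion ran from -0.51 to 1.66 for 4549, 0.27 to 0.59 for 4684 and -0.12 to 0.011 for 7267, and the total of 4549 from -0.65 to 0.36. The R6/2 minus Q150 HOMO change of 4549 ran from -1.50 to 0.68. R6/2 events called went from 498 to 424 without WT replicate 3, a setting chosen after seeing the data. Short counts of event 7267 (16 to 49 per mouse) limit what can be read from it.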
